A study of Mus musculus with 10 samples.

Results

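The miR-181 family was followed on 10 one-colour microarrays of mouse RNA, with 5 arrays of T-C cell samples and 5 of control cell samples. The members are 6 mature miRNAs, chosen by name among the 1892 miRNAs on the array. The naming rule used no measured value, though earlier results of these data were known at the time. They are the 5p arms of miR-181a, miR-181b, miR-181c and miR-181d and the 3p arms made by the Mir181a-1 and Mir181a-2 hairpins. T-C cell samples carry the source label Col-/- and control cell samples the source label Control Col. The treatment label names TN-CF at 0.5 mg to a dish with 100000 of the T-C cells over 24 hours, next to a control, so treatment and source label change together between the groups and cannot be told apart. All samples of both groups are labelled male, mouse, liver cell culture and sle liver. Strain and age are not given in the labels, nor is the meaning of the abbreviations TN-CF, T-C, Col and sle. Whether the samples within a group are separate animals or cultures is not stated either, and p-values then cover just the variation among these samples, possibly technical.

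A mature miRNA guides the silencing complex to messages that pair with its seed, the stretch from base 2 to base 8, and the 4 guide strands of the miR-181 family carry the same seed. In mice the family is best known from the thymus, where miR-181a lowers several phosphatases and so raises the sensitivity of the T cell receptor, and from B cell and natural killer T cell development. The hairpins lie in 3 clusters, and miR-181a-5p and miR-181b-5p are each made from more than 1 of them, so their levels cannot be assigned to a locus. A 3p arm usually differs between hairpins, which is why miR-181a-1-3p and miR-181a-2-3p can in principle report on single loci.

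The target sequences given for the members on the array are shown from 5′ to 3′ with the seed in capitals, because some guide strands differ by a single edit and a probe for one may bind another, while the 3p arms differ from the guide strands by 10 to 14 edits.
mmu-miR-181a-5p: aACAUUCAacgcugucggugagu
mmu-miR-181b-5p: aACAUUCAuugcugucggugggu
mmu-miR-181c-5p: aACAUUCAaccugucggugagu
mmu-miR-181d-5p: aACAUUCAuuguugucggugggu
mmu-miR-181a-1-3p: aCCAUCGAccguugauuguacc
mmu-miR-181a-2-3p: aCCGACCGuugacuguaccuug
RefSeq on GRCm38.p6 held an entry for all 6 members, and 4 of them had the array's sequence letter for letter. RefSeq gives miR-181b-5p with 24 bases against 23 on the array, with the same seed. It places miR-181a-2-3p 3 bases further upstream in the hairpin (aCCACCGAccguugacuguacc), so that the seed on the array is not the RefSeq seed for that arm. The seed ACAUUCA occurred in the 4 guide strands and in 0 other miRNAs of the array. The 3p seed CCAUCGA of miR-181a-1-3p was shared with miR-181c-3p, which is not one of the members, and with 0 miRNAs outside the family.

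Sequence and genome pair the guide strands differently. By sequence, miR-181b-5p and miR-181d-5p differ by the single substitution C12U, counted from the 5′ end of miR-181b-5p. miR-181a-5p and miR-181c-5p differ by 1 edit, with miR-181c-5p shorter by that base (22 against 23 bases). miR-181a-5p and miR-181b-5p differ by A9U, C10U and A21G, counted from the 5′ end of miR-181a-5p. By position, miR-181a lies beside miR-181b, and miR-181c beside miR-181d. The Mir181a-1 and Mir181b-1 hairpins lie 97 bases apart on chromosome 1 of GRCm38 (137966455 to 137966718, plus strand) in an intron of the non-coding gene Gm4258, and the miR-181b part also lies in an exon of the lincRNA gene A430106G13Rik. The Mir181a-2 and Mir181b-2 hairpins lie 1019 bases apart on chromosome 2 (38852735 to 38853918, plus strand), opposite an intron of the nuclear receptor gene Nr6a1 on the minus strand. The Mir181c and Mir181d hairpins lie 85 bases apart on chromosome 8 (84178716 to 84178961, minus strand) in an intron of Nanos3. By position, miR-181a-1-3p stands for the chromosome 1 cluster, miR-181a-2-3p for the chromosome 2 cluster, and miR-181c-5p and miR-181d-5p for the chromosome 8 cluster. Their signal on the array can be assigned so only if the probes do not bind near relatives, which was not tested. miR-181c-5p and miR-181d-5p each lie 1 edit from a guide strand of the other clusters. miR-181a-1-3p differs from miR-181c-3p of chromosome 8 by U16G and U19G.

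Each miRNA has 2 spots per array, and an intensity below is their mean, a linear scanner brightness with no scaling between arrays. A miRNA counted as detected where it lay more than 3 SD above the mean of the array's 16 blank spots. That limit was 133 to 474 on T-C cell arrays and 64.0 to 319 on control cell arrays, and 189 to 668 and 319 to 1314 miRNAs passed it. T-C cell replicate 3 had the highest limit and the fewest detected miRNAs. T-C cell replicate 1 stood apart on the first principal component of the tested miRNAs (50.4% of the variance), where it scored −15.8. The remaining T-C cell arrays scored −5.10 to −1.34, and scores of control cell arrays were 1.63 to 8.05. The liver label was checked against miR-122-5p, by far the most abundant hepatocyte miRNA, which was detected on 1 of 10 arrays. Its intensity was 101 to 193 on T-C cell arrays and 57.8 to 178 on control cell arrays. miR-192-5p and miR-194-5p, also abundant in liver and in gut, were detected on all 10 arrays.

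**Figure D1:**
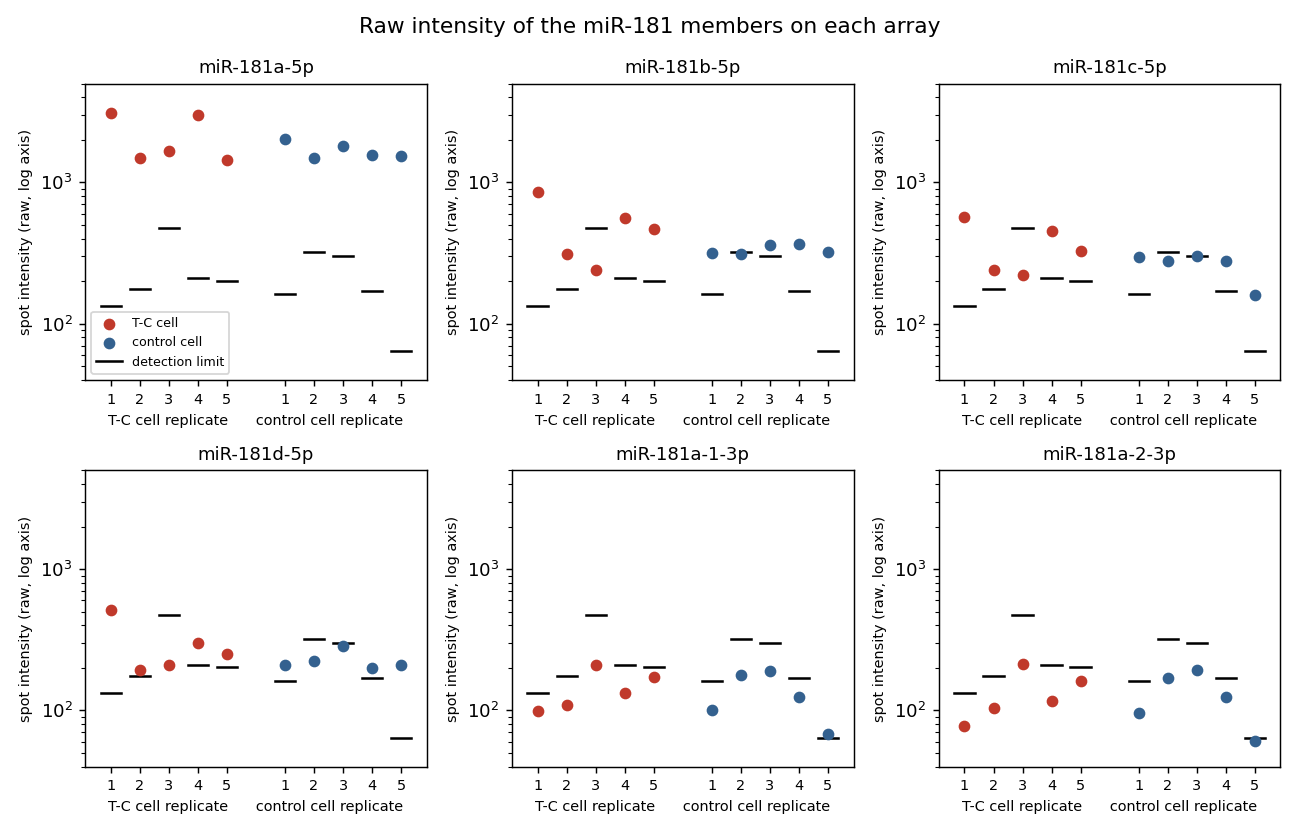
Raw spot intensity (log axis) of each of the 6 members on every array, T-C cell replicates on the left in red and control cell replicates on the right in blue, with a black line at each array's detection limit. miR-181a-5p lies above the limit on all 10 arrays, miR-181b-5p, miR-181c-5p and miR-181d-5p lie near it on several, and the 3p arms lie below it except for miR-181a-1-3p on control cell replicate 5.

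mmu-miR-181a-5p, the member that tunes T cell receptor signalling, was the brightest and was detected on all 10 arrays. Its raw intensity was 3075, 1479.7, 1663, 2989 and 1439.6 on T-C cell replicates 1 to 5, against 2036, 1478, 1819, 1552 and 1543 on control cell replicates 1 to 5. T-C cell replicates 1 and 4 were the highest of all arrays, the other 3 T-C cell arrays lay within or just below the control cell range, and the groups overlapped. After normalization between arrays the log2 level was 10.94 ± 0.24 in T-C cell samples and 10.76 ± 0.13 in control cell samples (SD, n = 5 each). The log2 difference, T-C cell minus control cell, was 0.19 (SE 0.15, 95% interval −0.14 to 0.51, limma adjusted p = 0.614 over 476 tested miRNAs), a ratio of 1.14 with an interval of 0.908 to 1.43. The probe stood at rank 81 of the 476 by mean level. Brightness depends on the probe as well as on the RNA, so ranks and differences between members describe signal, not molecule numbers.

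mmu-miR-181b-5p, the partner of miR-181a in the chromosome 1 and 2 clusters, was detected on 8 of 10 arrays. Its raw intensity was 848, 312, 241, 563 and 471 on T-C cell replicates 1 to 5, against 318, 313, 363, 368 and 323 on control cell replicates 1 to 5. The T-C cell arrays held the highest and the lowest values, on replicates 1 and 3, with the control cell arrays in a narrow band between them. On T-C cell replicate 3 the intensity was 1.08 times the mean of the blank spots and below that array's limit of 474. The log2 level was 8.93 ± 0.39 in T-C cell samples and 8.71 ± 0.10 in control cell samples (SD, n = 5 each), a difference of 0.22 (SE 0.19, 95% interval −0.20 to 0.64, limma adjusted p = 0.659).

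mmu-miR-181c-5p, from the chromosome 8 cluster, was also detected on 8 of 10 arrays. Its raw intensity was 568, 242, 221, 456 and 327 on T-C cell replicates 1 to 5, against 295, 277, 303, 276 and 159 on control cell replicates 1 to 5. Replicate 1 was again the highest T-C cell array and replicate 3 the lowest, and the ranges overlapped. The log2 level was 8.58 ± 0.38 in T-C cell samples and 8.39 ± 0.25 in control cell samples (SD, n = 5 each), a difference of 0.19 (SE 0.19, 95% interval −0.23 to 0.62, limma adjusted p = 0.697).

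mmu-miR-181d-5p, the neighbour of miR-181c, was the dimmest guide strand and was detected on 7 of 10 arrays. Its raw intensity was 516, 193, 208, 299 and 252 on T-C cell replicates 1 to 5, against 209, 223, 284, 199 and 208 on control cell replicates 1 to 5. T-C cell replicate 1 was far above the other 9 arrays, which lay between 193 and 299 in both groups. The log2 level was 8.32 ± 0.44 in T-C cell samples and 8.23 ± 0.18 in control cell samples (SD, n = 5 each), a difference of 0.09 (SE 0.19, 95% interval −0.33 to 0.50, limma adjusted p = 0.875). Without T-C cell replicate 1 the difference was −0.09.

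The 3p arms were at background. miR-181a-1-3p had raw intensities of 99.3, 109.5, 209, 134 and 171 on T-C cell replicates 1 to 5, against 99.9, 179, 189, 125 and 68.6 on control cell replicates 1 to 5. Relative to the mean of the blank spots of the same array these were 0.805 to 1.21 on T-C cell and 0.786 to 1.25 on control cell arrays, and 1 array, control cell replicate 5, exceeded its limit. That array had the lowest limit, 64.0, under its own median intensity of 72.0, and 1314 miRNAs were detected on it. miR-181a-2-3p had raw intensities of 77.2, 104, 212, 118 and 162 on T-C cell replicates 1 to 5, against 95.3, 170.3, 194, 124 and 60.7 on control cell replicates 1 to 5. It was detected on 0 arrays, at 0.762 to 1.01 times the blank mean on T-C cell and 0.749 to 1.11 times on control cell arrays. Neither arm was tested, because the test asked for detection on at least 5 arrays. A difference between the chromosome 1 and chromosome 2 clusters was therefore not detectable on these arrays. The other arms of the family on the array, miR-181b-1-3p, miR-181b-2-3p, miR-181c-3p and miR-181d-3p, behaved alike, with 1 detection among them, that of miR-181c-3p on control cell replicate 5.

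Of the 4 tested members, 0 passed an adjusted p of 0.05 in limma and 0 had an unadjusted p under 0.05. Under quantile normalization miR-181a-5p had an unadjusted p of 0.0484 (limma adjusted p = 0.271). In that fit 86 of the 476 tested miRNAs had an unadjusted limma p under 0.05. In the main fit, with cyclic loess between arrays, 7.77% of the 476 passed the adjusted threshold (1.47% as higher and 6.3% as lower in T-C cell samples). There, 18.3% had an unadjusted limma p under 0.05. The groups overlapped for each of the 4, as they did for most tested miRNAs. Separate groups were seen for just 3.78% of the 476, so overlap does not set the members apart. All 4 differences were above 0, with a median of 0.19, against a median of 0.02 over the 476, of which 52.9% were above 0. The 4 share arrays and may share signal, so their common sign is not 4 separate observations. The intervals include no change and, at their upper ends, log2 differences from 0.50 to 0.64, so differences up to that size lie within the error of 5 arrays a group. Across the whole table, 7 miRNAs passed as higher and 30 as lower in T-C cell samples, a split of 14 and 33 under quantile normalization and of 1 and 13 under median centring.

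**Figure D2:**
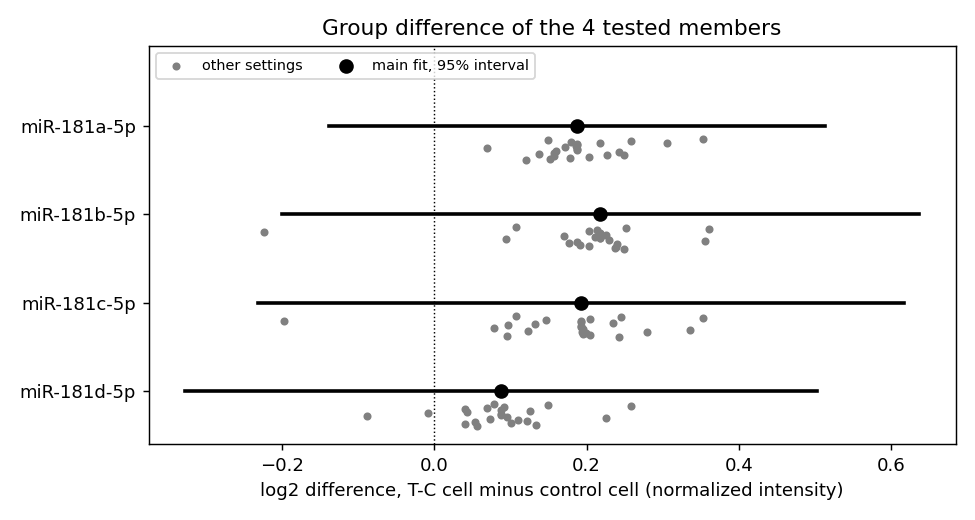
Log2 difference in normalized intensity, T-C cell minus control cell, for the 4 tested members. Black points and bars are the fitted value and its 95% interval, and grey points are the values under the other settings tried. Each bar crosses 0, and grey points below 0 appear for miR-181b-5p, miR-181c-5p and miR-181d-5p, not for miR-181a-5p.

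The members' values depended on T-C cell replicates 1 and 3, which held the highest and the lowest normalized levels of miR-181b-5p, miR-181c-5p and miR-181d-5p among all 10 arrays. Without T-C cell replicate 3, on which these 3 miRNAs were below the limit, their differences were 0.36, 0.34 and 0.23 (limma adjusted p = 0.318, 0.364 and 0.580). Without T-C cell replicate 1 they were 0.09, 0.08 and −0.09 (limma adjusted p = 0.881, 0.943 and 0.874). With both left out, a choice made after seeing the data, they were 0.25, 0.24 and 0.06 (limma adjusted p = 0.489, 0.599 and 0.938). miR-181a-5p stood at 0.16, 0.16 and 0.12 in the same fits. The SD was larger in T-C cell than in control cell samples for all 4 members, and also for 76.7% of the tested miRNAs.

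Differences between members were also taken within each array. They change with the added 50, the background and the scaling, and include arrays on which a member was not detected, namely T-C cell replicate 3 and control cell replicate 2 for miR-181b-5p, miR-181c-5p and miR-181d-5p, and control cell replicate 3 for miR-181d-5p. miR-181a-5p exceeded miR-181b-5p on all 10 arrays, by a mean log2 of 2.03 ± 0.30 (SD over 10 arrays). miR-181b-5p exceeded miR-181c-5p on all 10, by 0.33 ± 0.19. miR-181c-5p exceeded miR-181d-5p on 9 of 10, by 0.22 ± 0.26, which is within the spread, and the exception was control cell replicate 5. On the 7 arrays with all 4 detected the differences were 1.91 ± 0.20, 0.36 ± 0.22 and 0.21 ± 0.31 (SD), and the order a, b, c and d held on 6 of them.

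For the cluster partners, the offset within an array differed between the groups by less than its spread. miR-181a-5p lay above miR-181b-5p by a log2 of 2.02 ± 0.43 in T-C cell samples and 2.05 ± 0.15 in control cell samples (SD, n = 5 each), a change of −0.03. For miR-181d-5p minus miR-181c-5p the values were −0.27 ± 0.17 in T-C cell samples and −0.16 ± 0.34 in control cell samples, a change of −0.11. The mean of the chromosome 8 members lay below the mean of miR-181a-5p and miR-181b-5p by −1.49 ± 0.20 in T-C cell samples and −1.42 ± 0.07 in control cell samples, a change of −0.06. No test was run on these differences. With the blanks subtracted to a floor of 1 the change of miR-181a-5p minus miR-181b-5p was 0.53 and that of miR-181d-5p minus miR-181c-5p 0.24. Quantile normalization gave 0.25 for miR-181a-5p minus miR-181b-5p and no normalization −0.10.

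The pairs nearest in sequence also differed between the groups by less than their spread. miR-181a-5p minus miR-181c-5p was 2.36 ± 0.39 in T-C cell samples and 2.36 ± 0.15 in control cell samples, and miR-181b-5p minus miR-181d-5p was 0.61 ± 0.16 in T-C cell samples and 0.48 ± 0.17 in control cell samples (SD, n = 5 each). On T-C cell replicate 3 miR-181a-5p was above the limit and its relatives were under it, so the gaps on that array are not measured differences between miRNAs.

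**Figure D3:**
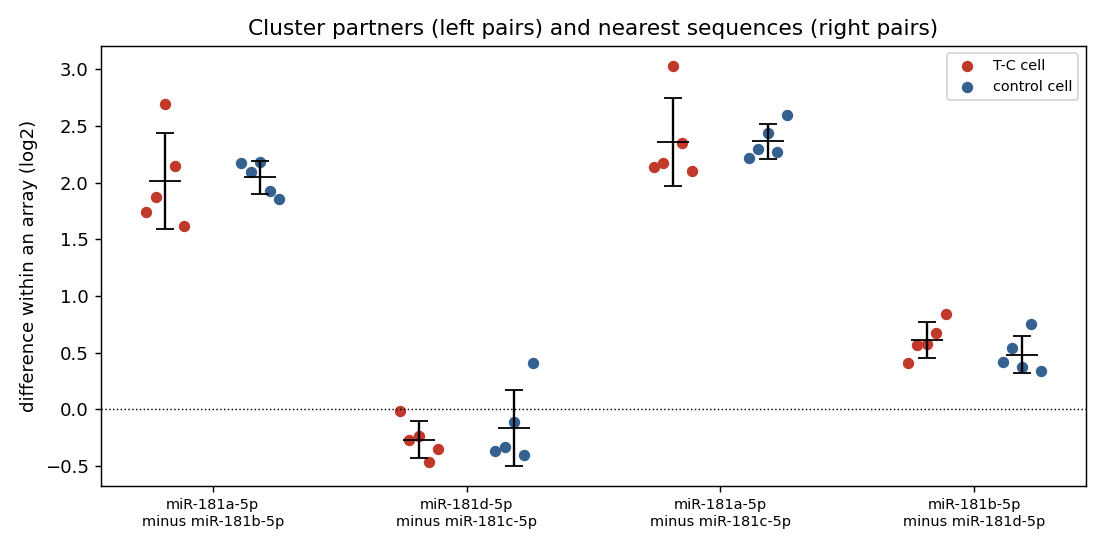
Difference in normalized log2 level between pairs of members on the same array, T-C cell samples in red to the left of control cell samples in blue, with the mean and SD in black. The left pairs are cluster partners and the right pairs are nearest in sequence, and in each pair the groups overlap.

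Across the 10 arrays, the dimmer guide strands varied together more than any of them did with miR-181a-5p. Pearson's r (Spearman's rho) was 0.852 (0.564) for miR-181b-5p with miR-181d-5p, 0.813 (0.794) for miR-181b-5p with miR-181c-5p and 0.678 (0.576) for miR-181c-5p with miR-181d-5p. With miR-181a-5p it was 0.512 (0.527) for miR-181c-5p, 0.331 (0.248) for miR-181d-5p and 0.301 (0.188) for miR-181b-5p, its partner in the clusters on chromosomes 1 and 2. Without the 2 arrays farthest from the median of miR-181b-5p, T-C cell replicates 1 and 3, the r with miR-181d-5p was 0.341 and that with miR-181c-5p 0.525 over 8 arrays, and for miR-181c-5p with miR-181d-5p, where the same arrays were farthest, it was 0.0389. Without the 2 arrays farthest from the median of miR-181a-5p, T-C cell replicates 1 and 4, its r was −0.604 with miR-181b-5p, −0.439 with miR-181d-5p and −0.08 with miR-181c-5p. With single arrays left out, the lowest r of each pair came without T-C cell replicate 1, at 0.717 for miR-181b-5p with miR-181c-5p, 0.703 for miR-181b-5p with miR-181d-5p, 0.475 for miR-181c-5p with miR-181d-5p and −0.0323 for miR-181a-5p with miR-181b-5p. For miR-181a-5p the highest r came without T-C cell replicate 3, where the dimmer strands were below the limit. It was then 0.839 with miR-181c-5p, 0.635 with miR-181d-5p and 0.617 with miR-181b-5p. Among the dimmer strands the highest r was 0.911 for miR-181b-5p with miR-181c-5p, without control cell replicate 5. Without the same array it was 0.903 for miR-181c-5p with miR-181d-5p. For miR-181b-5p with miR-181d-5p it was 0.910, without T-C cell replicate 5. The points share array, background and normalization, so the values are a description of these 10 arrays.

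**Figure D4:**
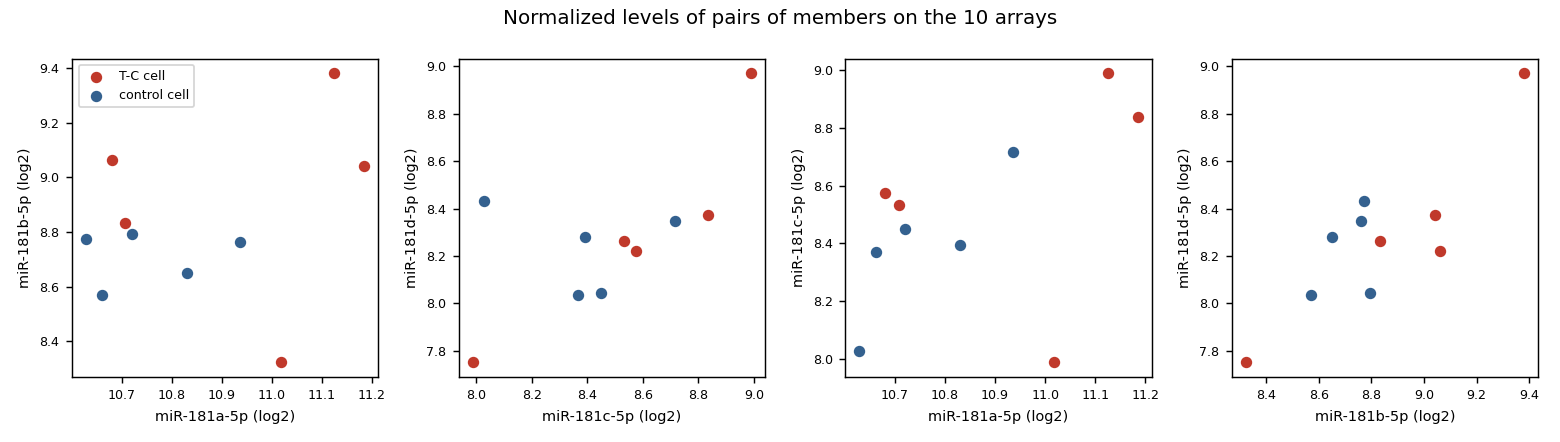
Normalized log2 levels of 4 pairs of members, 1 point per array, T-C cell in red and control cell in blue. From left to right the panels show the cluster partners miR-181a-5p with miR-181b-5p and miR-181c-5p with miR-181d-5p, then the nearest sequences miR-181a-5p with miR-181c-5p and miR-181b-5p with miR-181d-5p. The points of T-C cell replicates 1 and 3 lie at opposite corners of the panels without miR-181a-5p.

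Outside the family, the tested miRNAs whose levels most resembled those of miR-181a-5p over the 10 arrays were miR-7028-5p (Pearson's r 0.889), miR-7081-5p (0.828) and miR-199b-5p (0.801). Without T-C cell replicates 1 and 4 these were 0.702, 0.473 and 0.379. None of them passed the comparison of the groups (limma adjusted p = 0.178, 0.526 and 0.536). For each of the other guide strands, the 3 most alike miRNAs outside the family had r between 0.780 and 0.884. Without the 2 arrays farthest from the median of the guide strand these were between 0.243 and 0.79. All were picked as the highest among the tested miRNAs.

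Among 20 other miRNAs known from lymphocyte development and T cell activation, 19 were tested, 1 rose, 0 fell and 18 did not pass, beside 1.47% called as higher and 6.3% as lower over all tested miRNAs, with a median log2 difference of 0.13 against 0.02 over all tested miRNAs. The one that rose was miR-150-5p, a miRNA of mature lymphocytes, by 0.86 (SE 0.23, limma adjusted p = 0.0433), a call that ended under 13 of 24 alternatives (limma adjusted p from 0.0223 to 0.876). Those with the next smallest p were miR-342-3p at 0.38 (limma adjusted p = 0.195), miR-182-5p, which is induced on lymphocyte activation, at −0.41 (0.267), and miR-125b-5p, a miRNA of haematopoietic progenitors, at 0.50 (0.302). miR-92a-3p of the miR-17-92 cluster, which supports lymphocyte expansion, stood at 0.15 and miR-155-5p, raised in activated lymphocytes, at 0.13. The 6 leukocyte markers are all on that list, and 1 of them passed (miR-150-5p). Their differences were above 0 for 6 of 6, with a median of 0.36, beside 52.9% above 0 over all tested miRNAs. These 6 share arrays and include both arms of the miR-142 hairpin, so their common sign is not 6 separate observations. Of the other 13 tested miRNAs of the list 6 were above 0 and 7 below, with a median of −0.08. The summed raw intensity of the leukocyte markers was 2559 to 6127 on T-C cell and 2203 to 2786 on control cell arrays. Of the leukocyte markers, miR-142-3p, shared by all blood cell lineages, had 151 to 521 on T-C cell and 162 to 221 on control cell arrays and was detected on 5 of 10 arrays. Of the markers of other cells, 0 passed. The 5 epithelial markers had 1 difference above 0 and a median of −0.21, with a summed raw intensity of 20034 to 33955 on T-C cell and 19430 to 33905 on control cell arrays. The 5 mesenchymal markers had 4 above 0 and a median of 0.06, with sums of 30246 to 56376 on T-C cell and 37469 to 44972 on control cell arrays. The single tested erythroid and endothelial markers, miR-451a and miR-126a-3p, stood at 0.30 and −0.0056. The 3 tested hepatocyte markers, miR-192-5p, miR-194-5p and miR-148a-3p, stood at 0.47, 0.10 and −0.27, with a median of 0.10. The other hepatocyte markers, both arms of miR-122, were each detected on 1 array and not tested. The part of any of these cell types in the miR-181 values was not tested, and fewer cells of a type and less RNA per cell cannot be told apart in such samples.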

How the data were processed

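The authors deposited 1 file of raw spot intensity per array, a linear brightness, per the file headers. Per the labels' protocols, 1 µg of total RNA was extended with poly(A), ligated to a tag and stained with Cy3 by a service provider. The scanner and its software, and any background treatment, are not stated there. A further Density Median column holds no values. Each spot was taken as log2(intensity + 50), both spots of a miRNA were averaged, and cyclic loess put the arrays on 1 scale (limma 3.58.1, R 4.3.3). The added 50 makes differences of dim miRNAs smaller. miRNAs detected on at least 5 of 10 arrays were compared with limma (lmFit, eBayes with a trend, two-sided, Benjamini-Hochberg adjustment over 476, threshold 0.05). The limma step was tested on simulated data. Arrays correlated with each other at 0.784 to 0.975, so none was an exact copy of another. These values cannot tell repeat arrays of the same RNA from separate samples. The headers number the arrays, and control cell numbers fall between T-C cell replicate 1 and its 4 fellow T-C cell arrays. Their meaning is not stated, so no batch was defined. A batch along the numbers was not tested and cannot be fully told apart from the group. T-C cell replicate 1, set apart from its fellows by number, also stood apart on the first principal component, and whether these are linked was not tested. The number of arrays limits precision. Named miRNAs are the members, the other arms of the family, seed sharers, the 3 most correlated miRNAs and the lymphocyte list (its calls and 3 further smallest p). Outside that rule, hepatocyte, erythroid and endothelial markers are named for their lists, and miR-92a-3p, miR-155-5p and miR-142-3p were named after their values were seen. The members, lists and tests were chosen with earlier results of these data known. Positions are from RefSeq (GRCm38.p6) and GENCODE M21 on GRCm38, and sequences from the array files and RefSeq (Python 3.11.15).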

Additional observations from a re-analysis of the deposited data

How the results depend on the processing

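The 4 tested members stayed short of the threshold under each of the 24 alternatives, except that miR-181d-5p had no value where detection on 8 of 10 arrays was asked for. The log2 difference of miR-181a-5p ranged from 0.07 (array weights) to 0.35 (quantile normalization). The sign changed for miR-181b-5p (−0.22) and miR-181c-5p (−0.20) when the blank mean was subtracted (floor of 1), and for miR-181d-5p with array weights (−0.0087) and without T-C cell replicate 1 (−0.088), while its range with single arrays left out was −0.088 to 0.23. Without normalization the median of all tested miRNAs was 0.14 and the members stood at 0.26, 0.36, 0.35 and 0.26 in the order a, b, c and d. The count of miRNAs passing over the whole table was 37. It was 14 under median centring, 3 after blank subtraction, 1 with all 1892 miRNAs tested, 1 without T-C cell replicates 1 and 3, and 1 to 44 with single arrays left out (12 and 2 without T-C cell replicates 1 and 4, and 3, 1, 1 and 3 without control cell replicates 1, 2, 3 and 5). The cause was not tested. Blank subtraction also moved the within-array change of miR-181a-5p minus miR-181c-5p to 0.50 and that of miR-181b-5p minus miR-181d-5p to −0.26. Sample numbers are shared by the groups, but deviations of same-numbered samples had correlations of −0.202 to 0.26, with number 5 alone above 0.1, so the numbers were not used as pairs. With the replicate number as a block, 22 miRNAs passed and the members had limma adjusted p from 0.719 to 0.885. Signal over background limits the 3p arms, which no setting made testable except the test of all miRNAs.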

Other observations

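Of the 30 miRNAs that passed as lower in T-C cell samples, 28 hold the letters ACC in the array's target sequence, while 96 of the 446 remaining tested miRNAs do. The letters were picked after these results were seen. Within the family, miR-181c-5p holds these letters (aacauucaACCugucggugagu) and the other 3 guide strands do not. Its log2 difference of 0.19 stood beside 0.19 for miR-181a-5p, which differs from it by 1 edit. The median difference was −0.13 over the 124 tested miRNAs with ACC and 0.05 over the rest. miR-181a-1-3p and miR-181a-2-3p hold ACC as well and were at background in both groups.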
